A study of Mus musculus with 6 samples.

Results

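The transcripts described here are 2663 successive UCSC transcript identifiers, from row 13 to row 2675 of a table of 55419 identifiers, which form the first long stretch of that table whose levels were lower in G9a knockout cells. The stretch was chosen by measured values: an earlier search of these data selected it on the log2 fold changes between the genotypes of transcripts at 8 CPM or more. Its lower level in knockout is therefore how it was chosen, and every comparison of genotypes within it is a description with no test. CPM is the usual depth-scaled read count of a library. RNA sequencing of poly-A libraries compared wild-type TT2 mouse embryonic stem cells (3 libraries) with TT2 cells of genotype G9a-/- (3 libraries). TT2 comes from a C57BL/6 female and a CBA male, and both genotypes were kept in serum medium with LIF, a cytokine that maintains such cells. The labels give neither the number of knockout clones nor whether the libraries of a genotype came from separate cultures. A genotype difference here could therefore be that of a clone, and the spread between libraries may be technical.

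G9a, encoded by Ehmt2, and its partner GLP place methyl groups on lysine 9 of histone H3. This modification is associated with silent chromatin, and it can cover broad domains of a chromosome as well as single promoters. The series concerns the part of both enzymes in gene silencing by Polycomb repressive complex 2, which methylates lysine 27 of the same histone. In embryonic stem cells Polycomb holds many developmental genes at low levels.

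The deposited table carries identifiers and no gene names or positions, and no table used here pairs them with genes. All 2663 identifiers of the stretch begin with uc007, and they fill 95.8% of the 2781 possible letter codes between the first and the last. The whole table is in alphabetical order. Successive identifiers can be transcripts of 1 gene, so the members of the stretch are not independent of each other. The level of Ehmt2 itself and the markers of embryonic stem cells were not analysed here, and no sequence is printed.

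The 6 libraries held 5738463 to 9717847 counts. Counting noise did not account for the differences between libraries of the same genotype (chi-square per degree of freedom 1.85 to 6.39), and pairs across genotypes differed more (16.5 to 29.5).

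Of the 2663 identifiers, 1148 (43.1%) had no read in any library, 813 (30.5%) had reads but too few for the test, and 702 (26.4%) were tested. Outside the 4 stretches that the rule names (this one, 2 other lower ones and a higher one), 49.9% of 49346 identifiers had no read and 22.4% were tested. The tested transcripts of the stretch had a median level of 10.4 CPM (interquartile range 2.74 to 54.3), against 8.25 CPM (2.50 to 49.8) outside.

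Among the tested transcripts of the stretch, more fell than rose in knockout cells. The median log2 fold change of the 702 was -0.37, against 0.027 for the 11047 outside, a difference of -0.39 or a ratio of 0.762. Of the 702, 341 fell (48.6%) and 70 rose (9.97%) by the edgeR quasi-likelihood test at a Benjamini-Hochberg adjusted p under 0.05, where over all 12713 tested transcripts 18.4% fell and 21.6% rose. The remaining 291 did not pass, and 209 of them had a value below 0. In bulk RNA, fewer cells that express a transcript and less RNA per cell cannot be told apart.

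All 3 knockout libraries lay below all 3 wild-type libraries for 381 of the 702 transcripts, and above them for 83. Over all tested transcripts these shares were 23.5% and 25.7%.

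**Figure D1:**
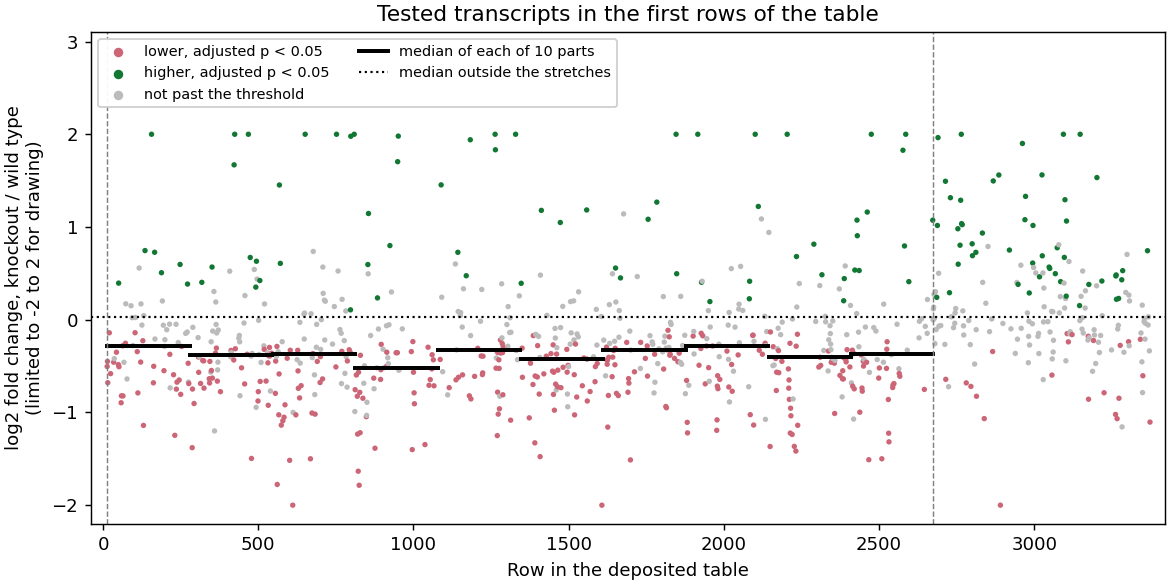
Log2 fold change (knockout over wild type) of every tested transcript against its row in the table, from the top of the table to beyond the end of the stretch, with values beyond 2 drawn at 2 and those under -2 at -2. The black bars, medians of 10 parts of equal row number, lie between -0.52 and -0.28 from row 13 to row 2675 (dashed lines), under the dotted median of 0.027 outside the stretches.

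Most decreases were small, in the stretch as outside it. Among the 341 transcripts that fell the median was -0.57, and 290 of them (85.0%) fell by less than 1 on the log2 scale. Outside the stretches the median of the falls was -0.46, and 87.7% of them were by less than 1. A fall of at least 1 was called for 51 of the 702 (all tested 2.40%), and a fall of at least 2 for 2 (all tested 0.102%). A rise of at least 1 was called for 33 (all tested 7.56%) and a rise of at least 2 for 14 (all tested 3.08%). The median of the 70 that rose was 0.81.

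The distribution sat lower over most of its width. At the 25th, 50th and 75th percentiles the log2 fold change of the stretch was -0.64, -0.37 and -0.07, against -0.23, 0.03 and 0.33 outside. The difference at these percentiles was -0.40, -0.39 and -0.39. Near the edges it was -0.40 at the 5th percentile, -0.36 at the 10th and -0.37 at the 90th. At the 95th percentile, among the strongest rises, the difference was -0.54. The interquartile range was 0.57 in the stretch and 0.56 outside.

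**Figure D2:**
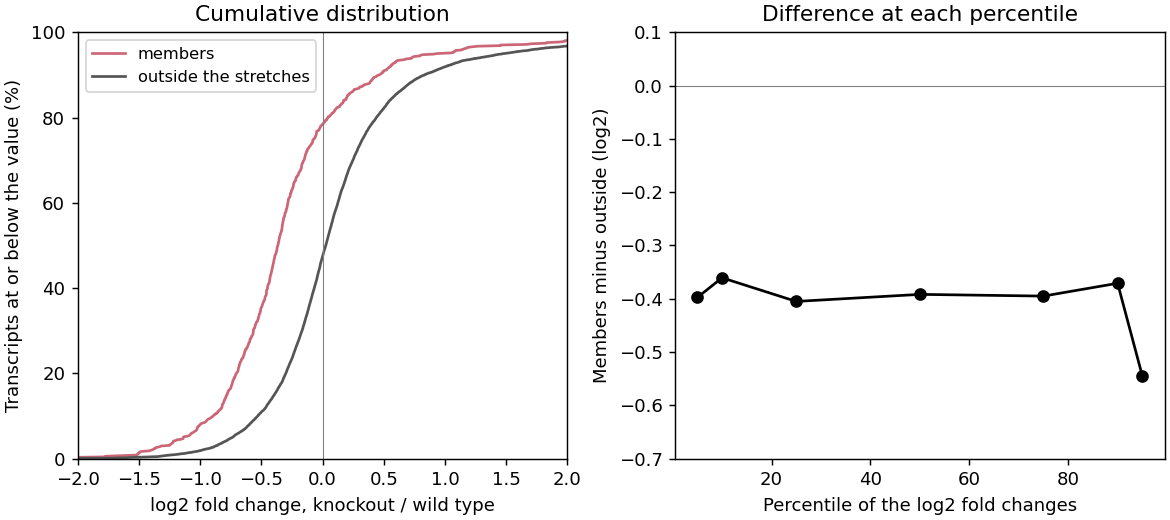
Left, the share of tested transcripts at or below each log2 fold change (knockout over wild type), for the stretch and for transcripts outside the stretches. Right, the stretch minus outside at 7 percentiles: it lies between -0.40 and -0.36 at 6 of them and is -0.54 at the 95th.

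Strongly and weakly expressed transcripts of the stretch had similar medians. In the 183 transcripts at 50 CPM or more the median was -0.36, with 146 lower and 10 higher. From 8 to 50 CPM it was -0.34 (195 transcripts, 110 lower and 24 higher), from 2 to 8 CPM -0.38 (206, 66 lower and 21 higher), and under 2 CPM -0.41 (118, 19 lower and 15 higher). The medians outside the stretches ran from 0.006 to 0.037 in these bands. The share called lower went from 16.1% in the weakest band to 79.8% in the strongest. Calls became more frequent with level outside the stretches too, from 5.16% to 21.8% lower and from 14.3% to 33.0% higher. The share with a value below 0, which does not depend on passing a test, was 73.7%, 72.3%, 77.9% and 88.5% from the weakest to the strongest band, against 49.6%, 49.4%, 46.4% and 44.3% outside.

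The spread within a genotype was small compared with the offset of the strongly expressed members. The median standard deviation of log2(CPM + 0.5) over 3 libraries, a quantity that the rule did not use, was 0.043 among wild-type and 0.072 among knockout libraries for members at 50 CPM or more, against 0.047 and 0.067 outside. From 8 to 50 CPM the wild-type value was 0.10 and the knockout value 0.14, against 0.11 and 0.12 outside.

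The offset was also seen between single libraries. Taking the median log2 ratio of the stretch minus that outside, the 9 pairs of a knockout with a wild-type library ran from -0.39 to -0.35. The 6 pairs within a genotype ran from -0.018 to 0.016. The ranges did not overlap, which the choice of the stretch on these same libraries largely fixes. The 9 pairs reuse the same 6 libraries and are not separate observations.

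Summed over all 2663 identifiers, the counts of the stretch relative to the counts outside the stretches were 10.24%, 10.02% and 10.15% in wild-type replicates 1, 2 and 3. In knockout replicates 1, 2 and 3 they were 7.56%, 7.58% and 7.63%. The genotypes did not overlap, as the choice of the stretch largely fixes, and the spread within each was small. The wild-type mean was 10.1% ± 0.107 (SD, n = 3) and the knockout mean 7.59% ± 0.0349 (SD, n = 3), a ratio of 0.749.

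This sum did not rest on a handful of abundant transcripts. The 10 most abundant held 39.3% of the counts of the stretch, with levels from 1294 to 12077 CPM. All 10 fell, by 0.11 to 0.60 on the log2 scale, and their summed ratio of knockout to wild type was 0.736. Without them the ratio was 0.757. The 1961 identifiers too weak for the test summed to 216 ± 5.68 CPM in wild type (SD, n = 3) and 204 ± 3.66 CPM in knockout (SD, n = 3), a ratio of 0.940. That ratio is on the CPM scale and not relative to the counts outside the stretches, so it cannot be set directly against the ratios above. The like ratio of weak identifiers outside the stretches was not analysed.

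**Figure D3:**
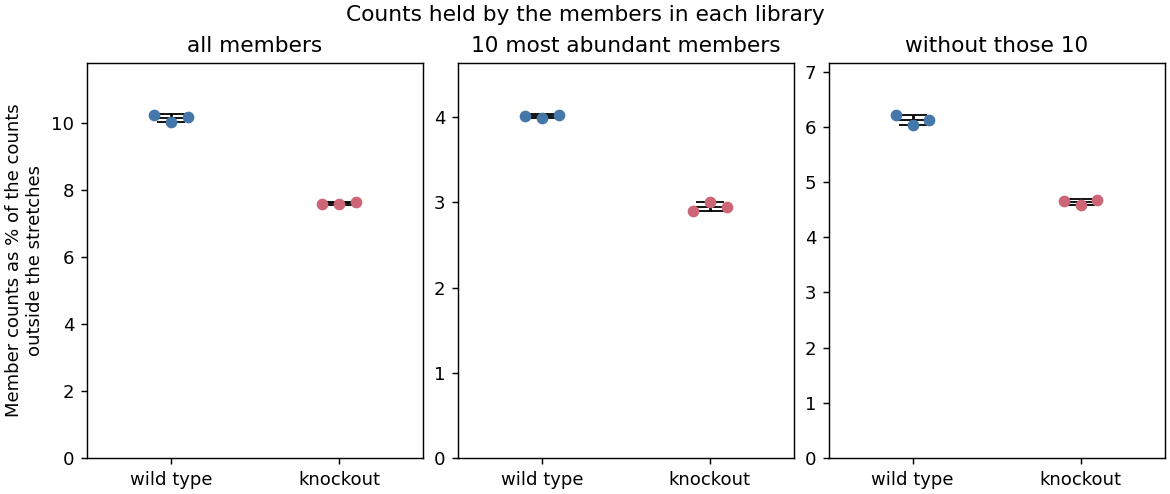
Counts of the stretch as a percentage of the counts outside the stretches, for all members, the 10 most abundant and the rest, with 1 point per library and bars for the mean ± SD (n = 3). All knockout points lie below all wild-type points in each panel, with ratios of 0.749, 0.736 and 0.757.

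The offset ran through the length of the stretch. Cut into 10 parts of equal row number, with 59 to 81 tested transcripts each, the stretch had a negative median in every part. The lowest, -0.52, was in rows 812 to 1078, where 35 of 59 transcripts fell and 6 rose. The nearest to 0, -0.28, was in rows 1878 to 2143, where 30 of 66 fell and 7 rose. The share of transcripts that fell lay between 42.9% and 59.3% in the 10 parts, and the share that rose between 5.48% and 17.5%. The last part had the highest share of rises, 11 of 63.

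The start and the end of the stretch differed. No row before the first member was tested: the 12 rows above it had at most 13 reads each over the 6 libraries. The first member, in row 13, had 263, 283 and 268 CPM in the wild-type libraries and 185, 208 and 178 CPM in the knockout libraries, a log2 fold change of -0.50 ± 0.05 (standard error). The first 25 tested transcripts had a median of -0.42, and 16 of them fell.

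At the other end the last 25 tested transcripts had a median of -0.15, and the next 25 after the stretch 0.12. Of these last 25, the first with a value above 0 was in row 2577. The 10 before it, in rows 2531 to 2567, had a median of -0.65, and the 15 from it on had a median of 0.01, of which 5 rose and 1 fell. The split was set by these values, so the contrast between both sides is in part fixed by it. The last member, in row 2675, had 77.6, 84.1 and 82.7 CPM in wild type and 83.7, 99.5 and 80.0 CPM in knockout, so its genotypes overlapped. Without the rows from 2577 on, 340 transcripts fell, 65 rose and the median was -0.37.

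Rises lay among the decreases in each of the 10 parts of the stretch. Of the 70 transcripts that rose, 25 (35.7%) lay within 5 rows of another one, against 56.0% of the 2572 rises outside the stretches, where rises were denser. Such a share depends on density, which was not adjusted for, so it does not show whether rises cluster. The longest run of successive tested transcripts under the outside median held 19 transcripts, in rows 574 to 638. Of the 702 tested, 557 (79.3%) lay under that median. Long runs can then arise in any order, so this run marks no trait of those rows. Neighbouring rows at 8 CPM or more had weakly related values. The Pearson correlation of their log2 fold changes, limited to between -1 and 1, was 0.08 over 85 adjacent pairs in the stretch and 0.22 over 1228 outside. These pairs share libraries and may share genes. They hold only directly successive rows, and 85 pairs are few, so the value in the stretch is imprecise. Whether both correlations differ was not tested.

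The naming rule took transcripts called changed, with a mean of at least 2 CPM and no overlap between the genotypes, so the separation of the genotypes in them was part of the choice. The largest rise under that rule was that of uc007bll.1, in row 809. It had 0, 0 and 1 reads in wild-type replicates 1, 2 and 3 and 32, 49 and 27 reads in knockout replicates 1, 2 and 3. It was thus close to undetected in wild type and present in every knockout library, with a mean of 4.60 ± 0.933 CPM (SD, n = 3). The ratio of knockout to wild-type reads, scaled for depth, was 119 with a 95% exact binomial interval of 20.8 to 4727, which covers counting error only. Its fitted log2 fold change was 6.42 ± 0.57 (standard error), and 8.19 without wild-type replicate 3, which held the single wild-type read.

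It was 1 of 3 identifiers of the stretch that had 10 or more reads in each knockout library and no more than 3 in all of wild type together. The reverse pattern was met by 0 identifiers of the stretch. Outside the stretches the numbers were 46 and 1, among 49346 identifiers against 2663 in the stretch. The sets differ widely in size, so these numbers mark no trait of the stretch.

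The next largest rise under the same rule was that of uc007cdl.1, in row 1263. It had 0.610, 0.781 and 0.628 CPM in the wild-type libraries and 7.04, 6.05 and 9.37 CPM in the knockout libraries. Wild-type levels were low and even, and the lowest knockout library was well above all of them. The log2 fold change was 3.44 ± 0.29 (standard error).

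The largest fall at a mean of at least 2 CPM was that of uc007crg.2, in row 1607, with 12.4, 9.84 and 13.4 CPM in wild type and 2.84, 2.47 and 3.12 CPM in knockout. The genotypes were far apart compared with the spread within each, and the log2 fold change was -2.11 ± 0.19 (standard error). uc007bmb.2, in row 825, had 5.19, 4.37 and 5.34 CPM in wild type and 1.82, 1.23 and 1.21 CPM in knockout. Its log2 fold change was -1.79 ± 0.26 (standard error), and it lies in the part of the stretch with the lowest median. It had 16, 11 and 7 reads in knockout replicates 1, 2 and 3. Every tested transcript from row 819 to row 829 was called lower, such as uc007bly.2 in row 822 at -1.63. Whether these close rows share a gene was not analysed. The genes of the 4 named transcripts were not analysed here.

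**Figure D4:**
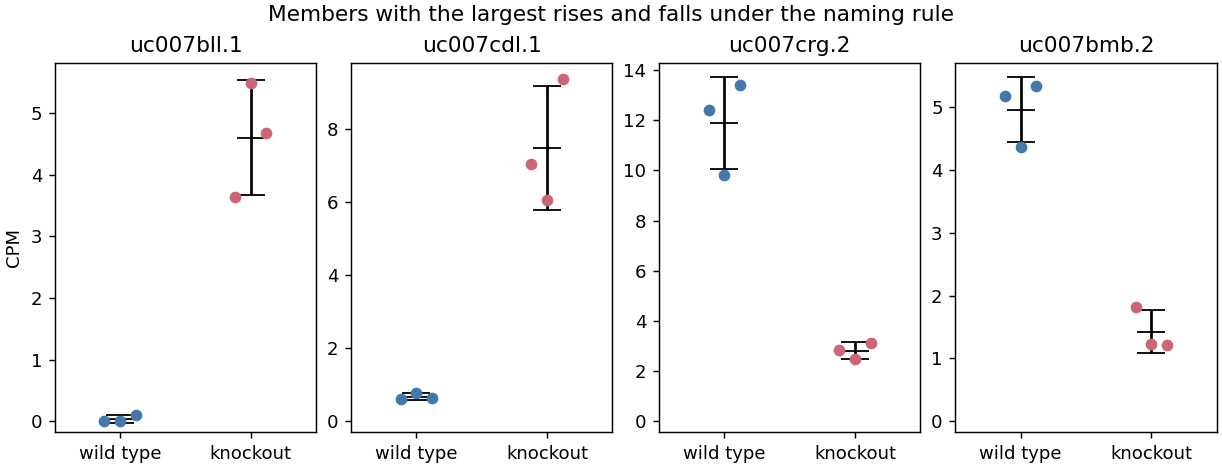
CPM in each library of the 2 members with the largest rises and the 2 with the largest falls under the naming rule, with 1 point per library and bars for the mean ± SD (n = 3); each panel has its own axis. The rule picked transcripts whose genotypes do not overlap; knockout means are 4.60 and 7.49 CPM in the panels of the rises and 2.81 and 1.42 CPM in those of the falls.

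The authors' deposited table gives an adjusted p for 1030 identifiers of the stretch. At 0.05 the authors' deposited table has 291 of them lower (28.3%) and 80 higher (7.77%), where over all its identifiers with an adjusted p the shares are 9.98% and 14.3%. Of its 291 lower calls 285 (97.9%) were also called lower by edgeR here, which is 83.6% of the 341. Of its 80 higher calls 59 (73.8%) were also called higher, which is 84.3% of the 70. In the opposite direction 0 were called. The filter used here removed some identifiers that have a deposited adjusted p, and a deposited call on those could not be shared. How many of the unshared calls were of this kind was not analysed. For the named transcripts, the log2 fold changes in the authors' deposited table are 3.85 (uc007bll.1), 2.99 (uc007cdl.1), -1.99 (uc007crg.2) and -1.62 (uc007bmb.2), each smaller in size than the value fitted here.

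The other lower stretches had like values. In the 188 tested transcripts of rows 7665 to 8259 the median log2 fold change was -0.41 with an interquartile range of 0.56, and in the 681 of rows 40746 to 42966 it was -0.39 with a range of 0.45. All 3 were chosen for this offset, and their difference from each other was not tested.

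A set of identifiers that the rule did not place in any stretch showed a similar offset. The alphabetical table holds a series of 47678 identifiers from uc007 to uc009, followed by a separate series of 7741 that begin with uc011 or uc012. The stretch occupies the span from 0.0273% to 5.61% of the first series. The same span of the other series holds 432 identifiers, in rows 47681 to 48112, of which 59 were tested. Their median log2 fold change was -0.52, 25 fell and 6 rose, and 46 had values below 0.

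In the rest of that series, leaving out the spans that match the other stretches, 745 transcripts had a median of 0.048, with 83 lower and 165 higher. Relative to the counts outside the stretches, the counts of the span were 0.389%, 0.367% and 0.381% in the wild-type libraries and 0.274%, 0.273% and 0.283% in the knockout libraries, a ratio of 0.731. The genotypes did not overlap. The bins of this series centred at 6.25% and 8.75% had medians of -0.13 and -0.31, from 19 and 17 transcripts. The first of them begins inside the span. These few transcripts do not show how sharply the offset ends there. The span that matches rows 40746 to 42966 had a median of -0.49 over 50 transcripts. The span that matches rows 7665 to 8259 had -0.12 over 23, and that of the higher stretch 0.07 over 11. This comparison was made after the values had been seen. Whether both series are ordered alike, and whether their transcripts share genes or reads, was not tested.

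**Figure D5:**
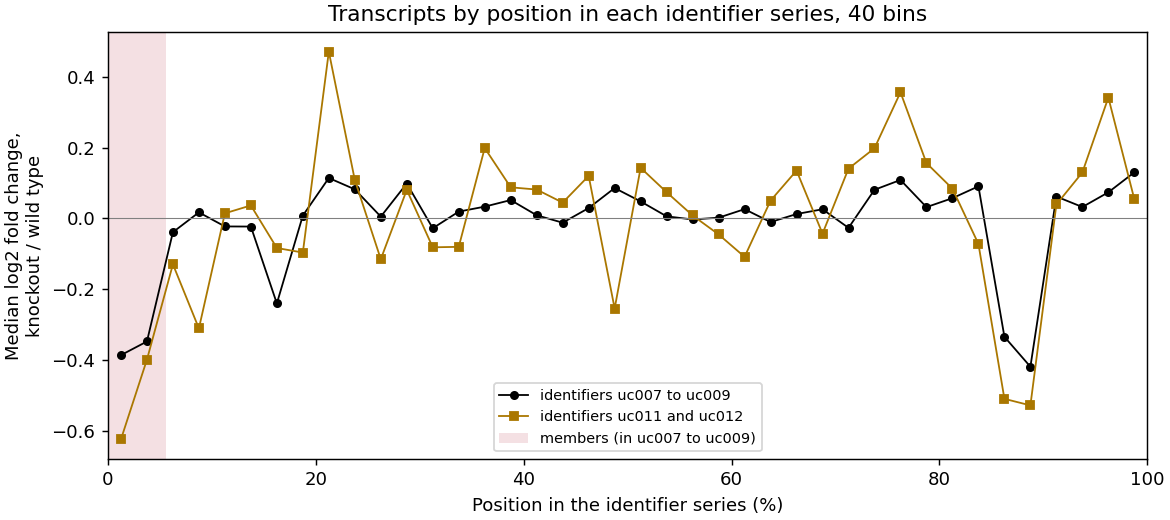
Median log2 fold change (knockout over wild type) of tested transcripts in 40 bins of equal identifier number, by position in the series uc007 to uc009 (circles) and in the series uc011 and uc012 (squares). The shaded span marks the stretch; its first 2 bins lie at -0.39 and -0.35 in the circles and at -0.62 and -0.40 in the squares.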

How the data were processed

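The authors deposited read counts for UCSC transcript identifiers in 6 libraries. The submitters' processing notes name the mm9 build, Bowtie 0.12.7, R 2.12.1 and, with no version, DESeq2. How reads were counted, with which strand setting and with what rule for several alignments, is not stated in these sources, so reads of overlapping or similar transcripts may be shared or split. The deposited normalized counts, rounded by the authors and treated as a score, lay within 0.5 of counts over DESeq2 size factors. The authors' deposited log2 fold changes and p-values were only set beside the recomputed ones.

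Counts of the whole table were filtered with filterByExpr, scaled with TMM and compared between genotypes with the quasi-likelihood test of edgeR 4.0.16 under R 4.3.3, without covariates, at an adjusted p (Benjamini-Hochberg) under 0.05. The standard error came from the F value. The test was checked on simulated data. Named transcripts were the 2 largest rises and falls among called members with at least 2 CPM on average and no overlap between genotypes. Alternatives were other scalings and filters, DESeq2 1.42.0, a replicate block, leaving out each library and a stricter threshold. The members and the row ranges were chosen with earlier results of these data known. Planned gene lists were not used, since identifiers carry no gene names.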

Additional observations from a re-analysis of the deposited data

How the results depend on the processing

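The counts of changed transcripts (5080 in all, 341 lower and 70 higher in the stretch) stayed within 1.5 times under every alternative run, as did the direction and call of the 4 named transcripts. With any 1 library left out there were 4336 to 4929 changed, 301 to 344 lower, 63 to 70 higher, medians of -0.37 to -0.36 in the stretch and 0.024 to 0.034 outside, and ratios of summed counts of 0.744 to 0.752. The median of the stretch became -0.41 with upper-quartile factors, -0.40 with TMM factors from outside the stretches, -0.31 with no low-count filter and -0.35 with DESeq2 in place of edgeR. The median outside became -0.022 with upper-quartile factors and -0.0099 with TMM factors from outside the stretches, so its sign depends on the scaling. It became 0.077 with no low-count filter, which changes the set of tested identifiers. The difference between both medians stayed between -0.40 and -0.38 in 14 settings. A scaling moves both alike, so steadiness under the other scalings is largely fixed in advance. The ends of the range came from other settings, -0.400 without wild-type replicate 1 and -0.382 with DESeq2 in place of edgeR. All settings reuse libraries on which the stretch was chosen. Relative to all counts of a library, the ratio of summed counts was 0.776, since the denominator then holds the stretches too. Other causes were not tested. The numbering of replicates was treated as no pairing, since deviations of same-numbered libraries correlated at 0.071, 0.097 and 0.023 only. Among its correlations with the other genotype, though, every library had the highest with the library of the same number. With the replicate block 5448 transcripts changed, 355 lower and 73 higher in the stretch. Dropping the end rows and the 10 most abundant members were chosen after seeing the data. Spread between libraries was widest under 2 CPM, with a median standard deviation of log2(CPM + 0.5) of 0.26 in wild type and 0.30 in knockout for the members.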
